A study of Homo sapiens with 6 samples.

Results

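The HOXB cluster was represented by 85 of the 60639 target probes of a long non-coding RNA and mRNA array. These were 24 exon probes and 14 intron probes of the 10 HOXB genes, plus 47 probes whose names begin with nc-HOXB. Exon and intron probes were chosen by the RefSeq accession in the probe name, and all 10 accessions matched a current HOXB symbol. All 85 probes gave a value on every array, each from 1 spot. The study exposed MDA-MB-231 cells, an established human breast cancer line of mesenchymal character, for 24 h to PBS as the control or to LPS, IL1b, TNFa, IL6 or TGFb. LPS is bacterial lipopolysaccharide, IL1b, TNFa and IL6 are inflammatory cytokines, and TGFb is a growth factor that signals through SMAD proteins. The series asks which long non-coding RNAs change when such stimuli are added. Each treatment was read on 1 array, so the differences below have no replicates behind them and carry no p-values, and the small number of arrays limits their precision.

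HOX genes encode homeodomain transcription factors that set position along the body axis, and the human genome holds them in 4 clusters, of which HOXB lies on chromosome 17. Genes near the HOXB1 end are switched on early and towards the head, and genes near the HOXB9 and HOXB13 end later and towards the tail. Many non-coding transcripts start between HOX genes or inside them, on either strand, and the nc- names place each such probe beside the HOX gene it is called after. An exon probe reads mature and unspliced RNA, while an intron probe reads unspliced RNA or a separate transcript of that stretch. Several HOXB genes, among them HOXB7, HOXB9 and HOXB13, have been studied in breast cancer.

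The array files carry no probe sequences. Of the 10 HOXB genes, 1 (HOXB1) has its start in the RefSeq promoter table used here, and its upstream sequence is shown because HOXB1 proteins act on their own gene together with PBX partners. The window is the 250 bases before the gene's start in GRCh38.p14, chr17:48531012-48531261, minus strand, and capitals mark a match to the PBX-HOX motif TGATNNAT.

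HOXB1 promoter: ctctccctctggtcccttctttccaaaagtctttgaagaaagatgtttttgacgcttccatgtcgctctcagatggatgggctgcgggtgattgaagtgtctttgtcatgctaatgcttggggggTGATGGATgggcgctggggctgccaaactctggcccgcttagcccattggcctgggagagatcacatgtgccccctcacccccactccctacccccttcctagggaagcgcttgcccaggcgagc

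The match is the only one of that motif in the window, searched on both strands, and its first base is at position -125 from the gene's start. The same motif occurs in 6.47% of 35116 RefSeq promoter windows of equal length. The STAT motif TTCNNNGAA, the AP-1 motif TGANTCA, the SMAD motif CAGAC, the TATA box TATAAA and the NF-kB consensus, searched on both strands, had 0 matches in this window. They occur in 6.57%, 6.57%, 38.0%, 10.7% and 9.96% of all windows. The HOXB1 window had a GC content of 57.2%, beside a median of 58.0% over all windows.

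Values below are log2 intensities after quantile normalization, which gives all arrays the same distribution. The brightness of different probes depends on their own sequence, so levels are compared between arrays for 1 probe and never between probes. A probe counts as measured where the scanner software set its flag for a signal well above background. That flag began at a different level on each array. The highest unflagged value was 3.56 with IL6, 4.48 with TGFb, 5.17 with IL1b, 5.87 with TNFa, 5.94 with LPS and 6.67 with PBS. Negative control spots, which are designed to match no transcript, carried the flag in 0.50% of cases with PBS and in 12.8% with IL6 and 11.2% with TGFb. The robust SD of log2 differences between arrays, over probes measured on all 6, ran from 0.22 (LPS and IL1b) to 0.96 (LPS and TGFb), and pairs with PBS lay at 0.68 to 0.90. None of the 13 marker genes listed for MDA-MB-231 is among the named probes, so the cell label could not be checked here. Likewise 0 of 9 HOX cofactor genes (PBX, MEIS and PKNOX families) and 0 of 19 regulators of HOX clusters are named.

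In the PBS control, signal was detected in every gene's stretch of the cluster but that of HOXB5. Of the 85 probes, 35 were well above background with PBS (41.2%), beside 33.2% of all target probes. By class these were 9 of 24 exon probes, 3 of 14 intron probes and 23 of 47 nc- probes. The intron count was 6 of 14 with the negative control spots or the array median as the limit. On all 6 arrays, 32 were measured (37.6%, beside 31.5% of all target probes), namely 7 exon, 3 intron and 22 nc- probes, and 18 were measured on none. Lower signal in bulk RNA cannot tell fewer expressing cells from less RNA per cell.

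Detection was not even from HOXB1 to HOXB13. With PBS, 2 of 5 probes of the HOXB1 stretch were measured, 1 of 8 for HOXB2, 4 of 8 for HOXB3, 7 of 15 for HOXB4, 0 of 5 for HOXB5, 4 of 9 for HOXB6, 2 of 3 for HOXB7, 1 of 5 for HOXB8, 13 of 23 for HOXB9 and 1 of 4 for HOXB13. The stretch called after HOXB5 was thus the only 1 of the 10 with no probe measured with PBS, LPS, IL1b or TNFa. It holds only 5 probes, and 33.2% to 49.0% of all target probes were measured on each of those arrays. HOXB5 is known from the gut's nervous system. HOXB5 exon 1, exon 2 and nc-HOXB5-179 were measured with IL6 alone or with IL6 and TGFb, at values of 3.95 to 5.80, all below the level at which the flag began with PBS. The 5 nc-HOXB2 probes were not measured on any of those 4 arrays either, whereas 6 of 12 nc-HOXB4 and 12 of 20 nc-HOXB9 probes were measured on each of the 4.

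**Figure D1:**
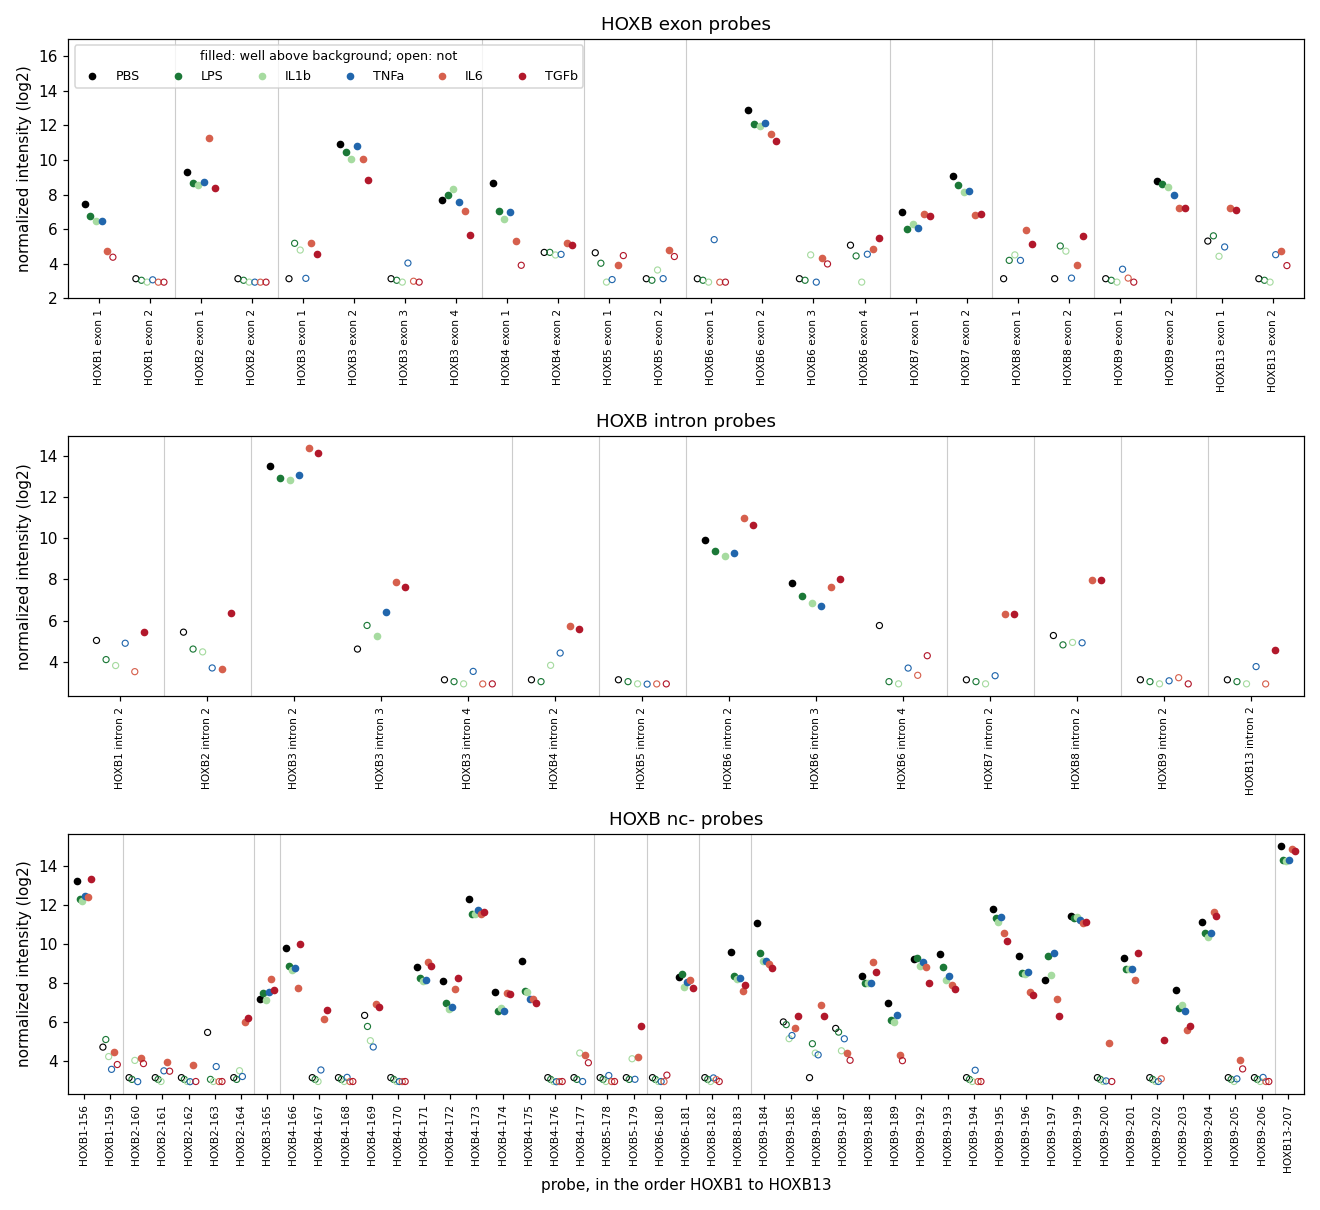
Normalized log2 intensity (y axis) of every HOXB exon, intron and nc- probe (x axis, HOXB1 to HOXB13) on the 6 arrays, with filled points well above background and open points not. Vertical lines part the genes. Within a gene, probes are ordered by number and not by known position. Most genes hold both measured and unmeasured probes, and many probes are filled with IL6 and TGFb alone.

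The arrays differed in how many HOXB probes were measured. The count was 35 with PBS and LPS, 36 with IL1b and TNFa, 64 with IL6 and 52 with TGFb. Over all target probes the shares were 33.2%, 40.7%, 49.0%, 43.5%, 68.4% and 56.3%. With PBS, LPS, IL1b and TNFa the HOXB count stayed at 35 or 36 although the share of all probes differed. Of the 85 probes, 31 (36.5%, beside 20.8% of all target probes) were measured with IL6 or TGFb and on none of the other 4. At a single limit for all arrays, the level of 6.67 at which the PBS flag began, the counts were 35, 32, 30, 30, 36 and 33 in the same order. Quantile normalization puts the same share of all target probes, 33.2%, above that level on every array, so these counts show only the place of HOXB probes among all probes. Of 29 probes measured with IL6 but not with PBS, 5 exceeded the PBS limit, and of 20 with TGFb, 4 did.

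The probes that did so were chosen after their values were seen. HOXB8 intron 2 lay at 7.98 with IL6 and 7.96 with TGFb, and between 4.83 and 5.28, not well above background, on the other 4 arrays. With IL6 it stood at least 2.48-fold and with TGFb at least 2.44-fold above the PBS limit. HOXB3 intron 3 lay at 4.62 with PBS and 5.77 with LPS, not well above background, and at 5.28 and 6.41 with IL1b and TNFa and at 7.85 and 7.63 with IL6 and TGFb, where it was. It stood at least 2.26-fold above the PBS limit with IL6 and at least 1.94-fold with TGFb. Both are intron probes, while the others that exceeded the limit are an exon probe and nc- probes. All were picked for exceeding it with IL6 or TGFb, so standing high there is no separate result. HOXB13 exon 1, from a gene known for its role in the prostate, lay at 7.25 with IL6 and 7.11 with TGFb, at least 1.49-fold and 1.35-fold above that limit. It was not well above background elsewhere. The remaining ones were nc-HOXB4-169 (6.93 with IL6 and 6.77 with TGFb) and nc-HOXB9-186 (6.89 with IL6).

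Gene by gene from the HOXB1 end, HOXB1 and HOXB2 pattern the hindbrain. HOXB1 exon 1 lay at 7.43 with PBS, at 6.74, 6.48 and 6.48 with LPS, IL1b and TNFa, at 4.75 with IL6, and at 4.38 with TGFb, where it was not well above background. The order was thus PBS, then LPS, IL1b and TNFa close together, then IL6 and TGFb. PBS stood at least 7.71-fold above the TGFb limit. Exon 2 of HOXB1 was measured on no array.

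HOXB2 exon 1 lay at 9.30 with PBS, at 8.66, 8.53 and 8.70 with LPS, IL1b and TNFa, and at 11.29 and 8.37 with IL6 and TGFb. The IL6 array stood 3.97-fold above the next, which was PBS, while the other 5 lay within 2-fold of each other. It was the only 1 of the 32 HOXB probes measured on all 6 arrays in which a single treated array stood at least 2-fold above each of the others. HOXB2 exon 2 was measured on no array, and HOXB2 intron 2 was measured with IL6 (3.65) and TGFb (6.36) alone, so no other exon or intron probe of the gene could be set against PBS. By normalized value IL6 lay that far above every other array in 2 of 64 HOXB probes measured with it, beside 1.74% of all probes. The other was nc-HOXB9-200, measured on no other array and under the PBS limit with IL6, so no fold is stated for it.

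HOXB3, another gene of hindbrain patterning, has 4 exon and 3 intron probes. HOXB3 exon 2 lay at 10.90 with PBS, at 10.45, 10.05 and 10.79 with LPS, IL1b and TNFa, and at 10.04 and 8.82 with IL6 and TGFb. HOXB3 exon 4 lay at 7.66 with PBS, at 7.97, 8.31 and 7.59 with LPS, IL1b and TNFa, and at 7.03 and 5.64 with IL6 and TGFb. Its TGFb value lay under the flag limits of PBS, LPS and TNFa. In both exon probes, TGFb was the lowest array, 4.23-fold and 4.06-fold below PBS and 2.33-fold and 2.63-fold below IL6, the nearest array. They were the 2 of 52 HOXB probes measured with TGFb in which it stood 2-fold or more below every other array (3.85%, beside 1.09% of all probes). By normalized value it lay that far above them in 2 of 52, nc-HOXB5-179 and nc-HOXB9-202, beside 4.68% of all. Both lay under the PBS limit with TGFb, at 5.80 and 5.05, and were not well above background with PBS, so no fold against PBS is stated. Both spots were flagged as local background outliers on the TGFb array. There nc-HOXB9-202 also lay under the 95th percentile of negative control spots (5.13). The other 2 exon probes of HOXB3 could not be set against PBS, exon 1 being measured with IL6 (5.20) and TGFb (4.59) alone and exon 3 on no array.

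HOXB3 intron 2 went the other way. It lay at 13.49 with PBS, at 12.92, 12.83 and 13.07 with LPS, IL1b and TNFa, and at 14.35 and 14.12 with IL6 and TGFb, so IL6 and TGFb were its 2 brightest arrays. Against PBS the intron differed by 0.86 with IL6 and 0.63 with TGFb, while exon 2 differed by -0.86 and -2.08 and exon 4 by -0.63 and -2.02. The gap between intron 2 and exon 2 in these differences was 1.72 with IL6 and 2.71 with TGFb, beside -0.12 with LPS, 0.19 with IL1b and -0.30 with TNFa. Between intron 2 and exon 4 the gap was 1.49 with IL6 and 2.65 with TGFb. With LPS, IL1b and TNFa that gap was -0.88, -1.31 and -0.34. The neighbouring nc-HOXB3-165 lay at 7.20 with PBS, at 7.46, 7.12 and 7.54 with LPS, IL1b and TNFa, and at 8.22 and 7.64 with IL6 and TGFb. It was highest with IL6, as intron 2 was, and 2.03-fold above PBS there.

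HOXB6 repeated this split between exon and intron. HOXB6 exon 2 lay at 12.86 with PBS, at 12.10, 11.94 and 12.12 with LPS, IL1b and TNFa, and at 11.48 and 11.10 with IL6 and TGFb. HOXB6 intron 2 lay at 9.90 with PBS, at 9.37, 9.11 and 9.26 with LPS, IL1b and TNFa, and at 10.99 and 10.64 with IL6 and TGFb. The exon was lowest, and the intron highest, with IL6 and TGFb. The gap between their differences from PBS was 2.47 with IL6 and 2.49 with TGFb, beside 0.23 with LPS, 0.13 with IL1b and 0.11 with TNFa. HOXB6 intron 3 lay at 7.81 with PBS, at 7.17, 6.85 and 6.72 with LPS, IL1b and TNFa, and at 7.64 and 8.03 with IL6 and TGFb. Its gap to exon 2 was 1.22 with IL6 and 1.98 with TGFb. Exons 1, 3 and 4 were not measured with PBS, LPS, IL1b or TNFa, and nc-HOXB6-181 stayed within 0.75 over the 6 arrays, from 7.74 with TGFb to 8.49 with LPS.

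**Figure D2:**
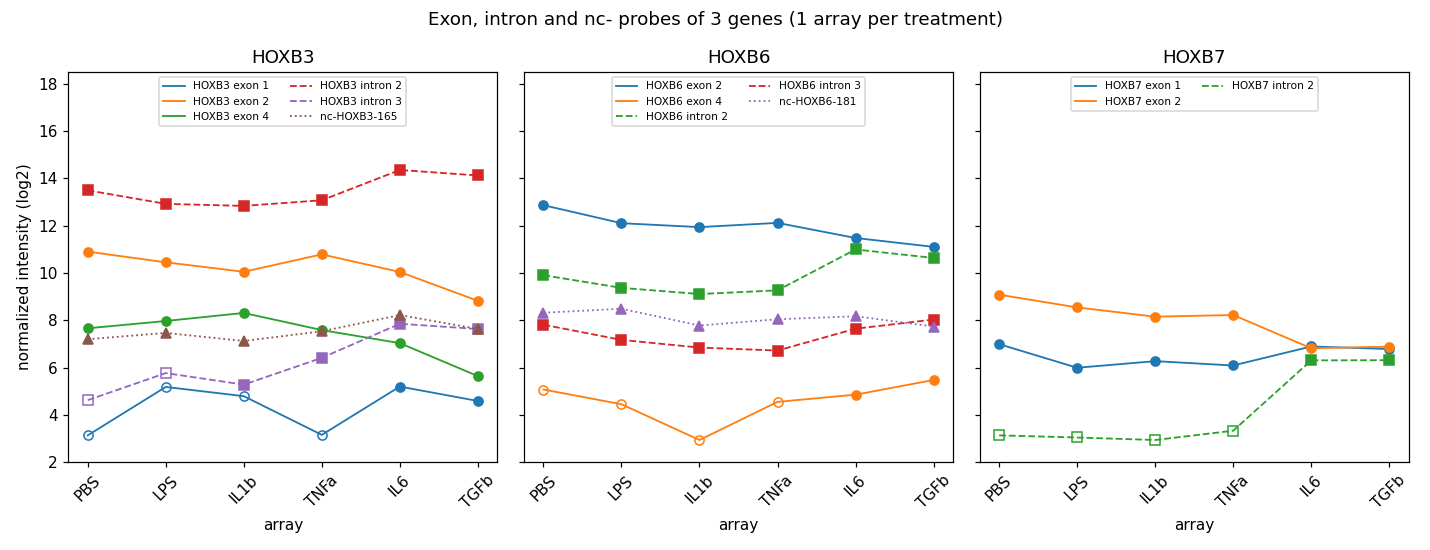
Normalized log2 intensity (y axis) by array (x axis) for exon probes (circles, solid lines), intron probes (squares, dashed) and nc- probes (triangles, dotted) of HOXB3, HOXB6 and HOXB7 that were well above background on at least 2 arrays. Filled symbols are well above background, lines join the values of a probe, and with IL6 and TGFb HOXB3 intron 2 and HOXB6 intron 2 lie above their PBS values while HOXB3 exons 2 and 4, HOXB6 exon 2 and HOXB7 exon 2 lie below theirs.

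HOXB3 and HOXB6 were the only HOXB genes with an exon and an intron probe measured on all 6 arrays, which gave 4 exon and intron pairs. HOXB3 intron 2 and HOXB6 exon 2 recur among the pairs, and all pairs share the same arrays, so they are not independent. With LPS, IL1b and TNFa, the largest gap in size was -1.31, between HOXB3 intron 2 and exon 4 with IL1b. In all 4 pairs, the intron stood higher relative to the exon with IL6 and TGFb, by 1.22 to 2.71. The sign of each of these differences from PBS was the same under quantile scaling, the authors' table, scaling to the 75th percentile and cyclic loess, except HOXB6 intron 3 with IL6, which was -0.17 under quantile scaling and 0.30 under the 75th percentile. The files do not say which strand a probe reads or from which end exons and introns are numbered.

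HOXB4 encodes a factor known for expanding blood stem cells. HOXB4 exon 1 lay at 8.65 with PBS, at 7.03, 6.58 and 7.00 with LPS, IL1b and TNFa, at 5.30 with IL6, and at 3.91, not well above background, with TGFb. The PBS array stood 3.08-fold above the next, LPS, and at least 17.9-fold above the TGFb limit. Exon 2 and intron 2 of HOXB4 were measured with IL6 and TGFb alone, at 5.06 to 5.76, so this order was seen with 1 probe of the gene.

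The nc- probes beside HOXB4 numbered 12, of which 6 were measured on every array. Of these, nc-HOXB4-175 lay at 9.14 with PBS, at 7.58, 7.56 and 7.16 with LPS, IL1b and TNFa, and at 7.18 and 7.00 with IL6 and TGFb. As in HOXB4 exon 1, PBS was highest, here 2.95-fold above LPS, and the 5 treated arrays lay within 2-fold of each other. A different order held for nc-HOXB4-166, at 9.78 with PBS, at 8.88, 8.69 and 8.75 with LPS, IL1b and TNFa, and at 7.72 and 10.02 with IL6 and TGFb. IL6 and TGFb were the lowest and the highest array of that probe, 4.90-fold apart.

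In nc-HOXB4-172 and nc-HOXB4-174, LPS, IL1b and TNFa lay lower than PBS, IL6 and TGFb. The probe nc-HOXB4-172 lay at 8.11 with PBS, at 6.95, 6.66 and 6.76 with LPS, IL1b and TNFa, and at 7.68 and 8.24 with IL6 and TGFb. The probe nc-HOXB4-174 lay at 7.55 with PBS, at 6.54, 6.73 and 6.57 with LPS, IL1b and TNFa, and at 7.46 and 7.41 with IL6 and TGFb. The remaining nc-HOXB4-171 ranged from 8.08 with IL1b to 9.09 with IL6, and nc-HOXB4-173 from 11.53 with IL1b to 12.33 with PBS.

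HOXB7, a gene linked to growth and repair in breast cancer cells, had both exon probes measured on every array. HOXB7 exon 1 lay at 6.99 with PBS, at 5.99, 6.27 and 6.09 with LPS, IL1b and TNFa, and at 6.89 and 6.78 with IL6 and TGFb. HOXB7 exon 2 lay at 9.08 with PBS, at 8.54, 8.15 and 8.22 with LPS, IL1b and TNFa, and at 6.82 and 6.89 with IL6 and TGFb. Exon 2 was 4.81-fold below PBS with IL6 and 4.58-fold with TGFb, whereas exon 1 differed there by -0.10 and -0.21 (0.42 and 0.42 under scaling to the 75th percentile), so the 2 exon probes of the gene did not move alike. Exon 2 of HOXB7 was the only 1 of the 32 probes with IL6 and TGFb each 2-fold or more below all of the other 4 arrays (3.12%, beside 3.61% of all probes), and 0 of 32 had them both that far above (3.54% of all). HOXB7 intron 2 was measured with IL6 (6.30) and TGFb (6.31) alone. No nc- probe is called after HOXB7.

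Around HOXB8, which blocks differentiation of myeloid progenitors when overexpressed, nc-HOXB8-183 was the only probe measured on every array. It lay at 9.62 with PBS, at 8.34, 8.21 and 8.25 with LPS, IL1b and TNFa, and at 7.58 and 7.91 with IL6 and TGFb. PBS was 2.42-fold above LPS, the nearest array. The exons of HOXB8 were measured with IL6 and TGFb alone, at 3.91 to 5.93.

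The HOXB9 stretch held 20 nc- probes, the most of any HOXB gene, and 11 of them were measured on all 6 arrays. HOXB9 has been tied to invasion and vessel growth in breast cancer. HOXB9 exon 2 lay at 8.80 with PBS, at 8.64, 8.46 and 8.00 with LPS, IL1b and TNFa, and at 7.24 and 7.25 with IL6 and TGFb. The 2 lowest were IL6 and TGFb, 2.94-fold and 2.93-fold below PBS, and HOXB9 exon 1 and intron 2 were measured on no array.

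The probe nc-HOXB9-197 had the widest range of the 32 HOXB probes measured on all 6 arrays. It lay at 8.17 with PBS, at 9.38, 8.43 and 9.56 with LPS, IL1b and TNFa, and at 7.19 and 6.33 with IL6 and TGFb, a span of 9.38-fold. LPS and TNFa were high, PBS and IL1b in the middle, and IL6 and TGFb low. Of the 19077 target probes measured on all 6 arrays, 1.39% had a larger range. TNFa stood 2.61-fold above PBS and TGFb 3.60-fold below, and these directions held under the 3 other scalings, where TGFb differed by -1.18 to -1.85. The probe thus lay at least 2-fold above PBS with LPS and TNFa and at least 2-fold below with TGFb. The share of all target probes that do both was not counted.

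Probes near it in number had other orders. The probe nc-HOXB9-196 lay at 9.37 with PBS, at 8.51, 8.45 and 8.58 with LPS, IL1b and TNFa, and at 7.55 and 7.40 with IL6 and TGFb, with PBS highest and IL6 and TGFb lowest, as for HOXB9 exon 2. The flattest HOXB probe was nc-HOXB9-199, at 11.43 with PBS, at 11.32, 11.37 and 11.22 with LPS, IL1b and TNFa, and at 11.08 and 11.15 with IL6 and TGFb, a range of 0.35. Of all probes measured on the 6 arrays, 96.6% varied more.

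**Figure D3:**
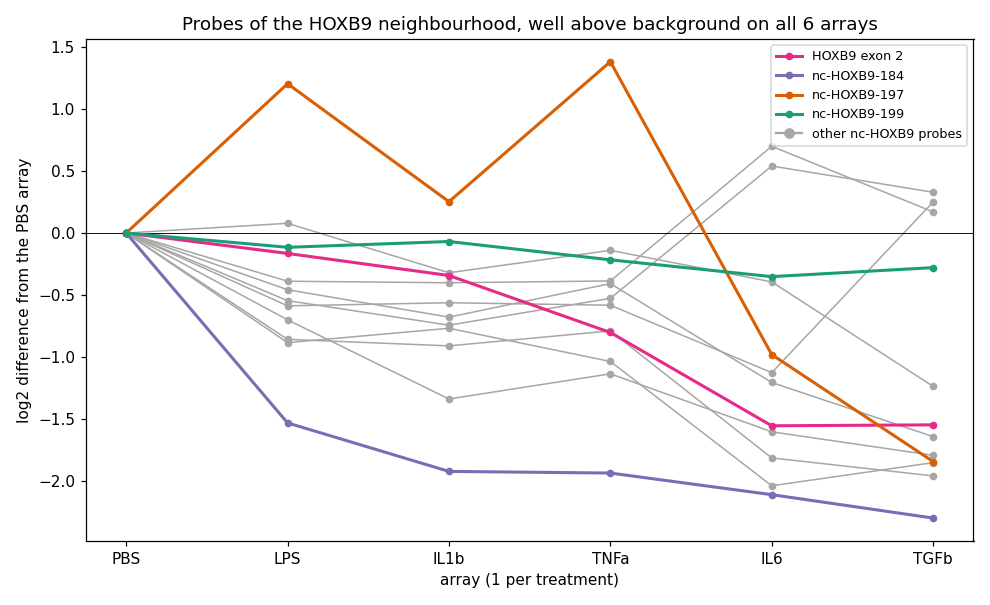
Log2 difference from the PBS array (y axis) on each array (x axis) for HOXB9 exon 2 and the 11 nc-HOXB9 probes well above background on all 6 arrays, with lines joining the values of a probe. The probe nc-HOXB9-197 lies at 1.21 with LPS and 1.38 with TNFa and at -1.85 with TGFb, nc-HOXB9-199 stays near 0, and nc-HOXB9-184 lies below -1.5 on every treated array.

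The probe nc-HOXB9-184 was more than 2-fold below PBS on all 5 treated arrays. It lay at 11.06 with PBS, at 9.53, 9.14 and 9.13 with LPS, IL1b and TNFa, and at 8.95 and 8.76 with IL6 and TGFb. PBS was again apart, 2.90-fold above LPS. Among nc-HOXB9 probes no other was that far below PBS on every treated array.

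A group of nc-HOXB9 probes was lower with IL6 and TGFb, as exon 2 was. With IL6 and TGFb, nc-HOXB9-193 was 3.04-fold and 3.47-fold below its PBS value of 9.51, nc-HOXB9-195 was 2.31-fold and 3.13-fold below 11.79, and nc-HOXB9-203 was 4.12-fold and 3.62-fold below 7.62. With IL6, nc-HOXB9-203 (5.58) lay under the flag limits of PBS, LPS and TNFa. For nc-HOXB9-192, the TGFb value of 7.98 was 2.36-fold below PBS and the other treated arrays lay at 8.82 to 9.30. A further probe, nc-HOXB9-189, which was chosen after its values were seen, lay at 6.99 with PBS and 4.28 with IL6 and was not well above background with TGFb.

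Other nc-HOXB9 probes did not share this order. The probe nc-HOXB9-188 lay at 8.38 with PBS, 7.97 to 7.99 with LPS, IL1b and TNFa, 9.08 with IL6 and 8.55 with TGFb, and nc-HOXB9-204 at 11.12 with PBS, 10.38 to 10.59 with those 3, 11.66 with IL6 and 11.45 with TGFb. In both, IL6 was highest and IL1b lowest. With TGFb highest and IL6 lowest, nc-HOXB9-201 ran from 8.16 to 9.54, the same ends as nc-HOXB4-166. Measured on a single array each, nc-HOXB9-200 (4.93 with IL6) and nc-HOXB9-202 (5.05 with TGFb) lay under the PBS limit.

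An nc- probe at each end of the cluster, nc-HOXB1-156 and nc-HOXB13-207, was measured on all 6 arrays. The probe nc-HOXB1-156 lay at 13.22 with PBS, at 12.33, 12.23 and 12.46 with LPS, IL1b and TNFa, and at 12.42 and 13.35 with IL6 and TGFb. The probe nc-HOXB13-207 lay at 15.05 with PBS, at 14.30, 14.26 and 14.34 with LPS, IL1b and TNFa, and at 14.87 and 14.78 with IL6 and TGFb. No exon of HOXB1 or HOXB13 was measured on all 6 arrays.

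Each treatment was then set against PBS over the whole cluster, counting probes well above background on both arrays that differed at least 2-fold. With LPS, 1 of 35 HOXB probes was higher and 6 were lower, beside 6.87% and 5.22% of all target probes measured on both arrays. With IL1b, 0 of 35 were higher and 7 lower (all probes, 9.43% and 9.62%). With TNFa, 1 of 35 was higher and 9 lower (all probes, 9.06% and 8.92%). The HOXB shares of lower probes were 17.1%, 20.0% and 25.7%. HOXB4 exon 1, nc-HOXB4-172, nc-HOXB4-175, nc-HOXB8-183 and nc-HOXB9-184 were lower with each of the 3.

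All 5 comparisons share the PBS array. Against the median of the other 5 arrays, 0 HOXB probes were at least 2-fold lower with LPS, 2 with IL1b and 0 with TNFa, beside 1.01%, 1.84% and 1.37% of all probes. That median includes the other arrays of this close group of 3, so a difference the 3 share is largely removed from it. The PBS array was the highest of the 6 in 16 of the 32 HOXB probes measured on all, beside 29.2% of all such probes. In 4 probes PBS stood at least 2-fold above each of the other arrays, namely HOXB4 exon 1, nc-HOXB4-175, nc-HOXB8-183 and nc-HOXB9-184, out of 35 measured with PBS (11.4%, beside 3.1% of all probes), and 3 of these were measured on all 6 (9.38% of 32, beside 1.7%). In 0 of the 32 were all 5 treated arrays above PBS, beside 19.9% of all, and in 0 of 35 did PBS stand 2-fold or more below all the others (1.61% of all). By the same measure no HOXB probe set a single one of LPS, IL1b or TNFa apart. The count above the other arrays was 0 of 35, 0 of 36 and 0 of 36 (1.68%, 1.02% and 1.62% of all), and below them also 0 (0.00406%, 0.0135% and 0.00379%). In 0 of 32 did those 3 stand together at least 2-fold above PBS, IL6 and TGFb (0.0105% of all). IL6 stood below the others in 0 of 64 (0.934% of all).

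With IL6, 3 of 35 HOXB probes were higher and 15 lower, beside 9.64% and 20.4% of all probes. The lower share was 42.9% of the HOXB probes tested with IL6 and 43.8% with TGFb. Those higher with IL6 were HOXB2 exon 1, HOXB6 intron 2 (2.13-fold) and nc-HOXB3-165. The lower ones with IL6 were 5 of 9 exon probes, 0 of 3 intron probes and 10 of 23 nc- probes. HOXB1 exon 1, HOXB4 exon 1, nc-HOXB9-189 and nc-HOXB9-203 lay with IL6 at 4.28 to 5.58, under the PBS limit of 6.67. With TGFb, 0 of 32 were higher and 14 lower, beside 10% and 18.9%, the lower ones being 5 of 7 exon, 0 of 3 intron and 9 of 22 nc- probes. Of these, HOXB3 exon 4, nc-HOXB9-203 and nc-HOXB9-197 lay with TGFb at 5.64, 5.77 and 6.33, also under the PBS limit. Against the median of the other 5 arrays, 6 were higher and 8 lower with IL6 (13.2% and 11.4% of all probes), and 5 higher and 9 lower with TGFb (13.4% and 13.4% of all). A probe had to carry the flag on both arrays, and the flag began highest with PBS. Probes dim with PBS therefore could not count as higher. With the brighter array above its median in place of the flag, 13 were higher and 19 lower with IL6 (all probes, 21.1% and 21.6%). With TGFb, 11 were then higher and 20 lower (all probes, 21.9% and 21.8%). These counts include values not well above background.

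**Figure D4:**
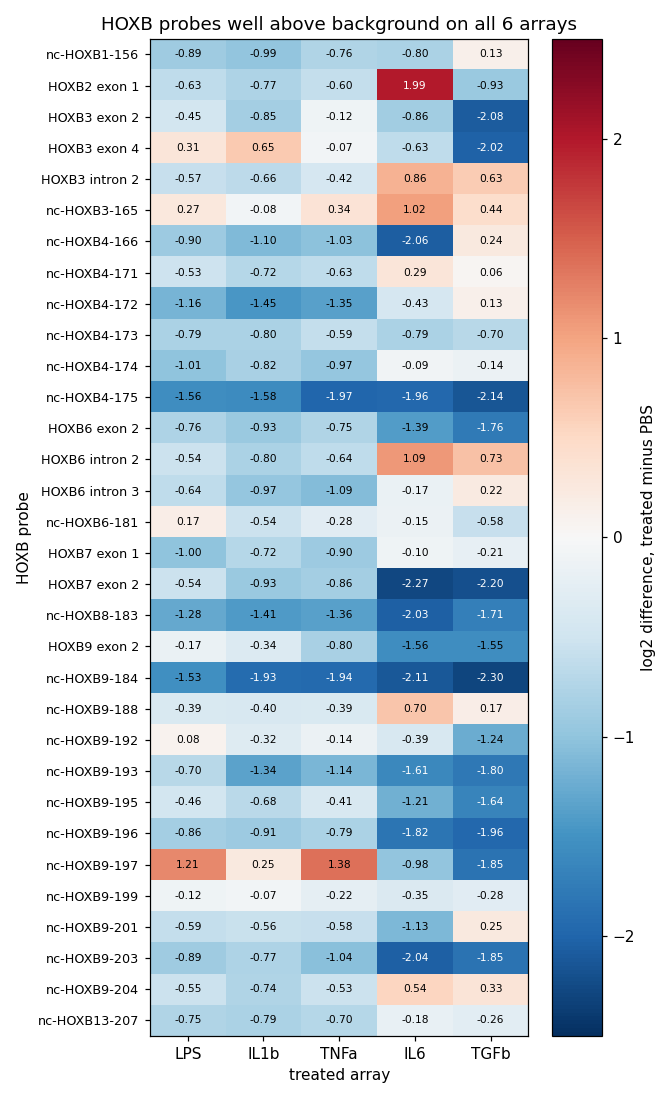
Log2 difference from PBS (colour and printed value) of the 32 HOXB probes well above background on all 6 arrays (rows, HOXB1 to HOXB13) for each treated array (columns). Blue dominates with LPS, IL1b and TNFa, where 27, 30 and 30 of 32 probes lie below PBS. With IL6 and TGFb red is added for introns, except HOXB6 intron 3 with IL6 (-0.17), and for some nc- probes. With IL6, HOXB2 exon 1 is red as well (1.99).

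Over probes measured on all 6 arrays, the median differences of exon, intron and nc- probes were close with LPS, IL1b and TNFa. With IL6 the introns parted from the exon and nc- probes, and with TGFb the 3 classes all lay apart. For the 7 exon probes the medians were -0.54, -0.77 and -0.75 with LPS, IL1b and TNFa, and -0.86 and -1.76 with IL6 and TGFb. For the 3 intron probes they were, in that order, -0.57, -0.80, -0.64, 0.86 and 0.63. For the 22 nc- probes they were -0.73, -0.78, -0.67, -0.80 and -0.43. Over all 19077 such probes the medians were -0.14, -0.19, -0.20, -0.08 and -0.05. All HOXB classes thus lay below PBS with LPS, IL1b and TNFa. Scaling to the 75th percentile moved the median of all probes by -0.12 with LPS, -0.13 with IL1b, 0.17 with IL6 and 0.21 with TGFb. Relative to that median, the exon median lay at -1.72 with TGFb under quantile scaling and at -1.45 under the 75th percentile, and the intron median at 0.67 and 0.55. The intron median with IL6 went from 0.93 to 0.55, and the nc- median with TGFb from -0.39 to -0.69. Of the 85 HOXB probes, 36 lay at the lowest signal of the array with PBS and are not in these medians.

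Of the other HOX clusters, HOXC came nearest to HOXB in its exon medians with IL6 and TGFb. With IL6 its exon median was -0.76 over 7 probes, beside -0.86 for HOXB, and its only intron probe measured on all 6 arrays lay at 0.50 with IL6 and 0.48 with TGFb, above its exon medians as in HOXB. HOXA went the other way. The median of its 4 such intron probes was -0.02 with IL6 and 0.26 with TGFb, below its exon medians of 0.74 and 0.48. HOXD had no intron probe measured on all 6 arrays. With TGFb, the HOXB exon probes were lower in 7 of 7 cases (median -1.76), HOXC in 5 of 7 (median -0.54), HOXA in 2 of 6 (median 0.48) and HOXD in 1 of 4 (median 0.63). Exon probes at least 2-fold lower, of those measured with PBS and the treated array, were counted as well. With TGFb they were 5 of 7 in HOXB, 3 of 8 in HOXC, 2 of 7 in HOXA and 2 of 5 in HOXD. With IL6 they were 5 of 9, 3 of 8, 1 of 7 and 3 of 6 in that order. Over all probes the shares were 18.9% with TGFb and 20.4% with IL6. With LPS, in contrast, the nc- medians were -0.75 for HOXA, -0.53 for HOXC and -0.77 for HOXD, around the HOXB value of -0.73. By the 2-fold count, nc- probes lower with IL6 were 10 of 23 in HOXB and 11 of 29 in HOXC. They were 5 of 15 in HOXD and 4 of 17 in HOXA (all probes, 20.4%). With IL1b the counts were 6 of 23, 7 of 29, 2 of 15 and 6 of 17 in that order (all probes, 9.62%). With 1 array per group the differences between clusters could not be tested.

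Over the 6 arrays, HOXB probes varied more than the typical probe. The median range was 1.57 for the 32 HOXB probes and 1.18 for all probes measured on all arrays, and 27 of 32 (84.4%) spanned at least 2-fold, beside 61.9%. By class the median range was 2.08 for exons, 1.52 for introns and 1.35 for nc- probes. LPS, IL1b and TNFa were close to each other also within the cluster. Over the 32 probes the robust SD of differences was 0.23 between LPS and IL1b, 0.19 between LPS and TNFa, 0.18 between IL1b and TNFa and 0.38 between IL6 and TGFb. Between the first 3 of these arrays and the last 2 it was 1.13 to 1.47. Between PBS and LPS, IL1b and TNFa it was 0.39, 0.30 and 0.44 (all probes, 0.68, 0.80 and 0.74). Between PBS and IL6 and TGFb it was 1.13 and 1.39 (all probes, 0.88 and 0.90). This spread is taken about the median difference, so a shift that all probes share does not enter it.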

How the data were processed

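RNA of 6 samples, 1 array each, was measured after 24 h. The deposited intensity of each spot was corrected for background by the scanner software, per the file headers, and its deposited flags are 0 or 1. The labels describe a NimbleGen array, while the files are 1-colour Agilent output of 62738 spots, and the files were followed. The authors also deposited a table of log2 values, for which the submitters' processing notes name RMA. It matched the quantile-normalized values of HOXB probes well above background to within 0.00336.

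Feature outlier spots and control spots were left out and repeat spots averaged on the log2 scale, which left 60596 of 60639 target probes. Values were quantile normalized with limma 3.58.1 in R 4.3.3. Members and lists were chosen with earlier results of these data known. Named were all HOXB genes, nc- probes well above background on all 6 arrays and probes at least 2-fold off each of the other 5 arrays. "At least" folds are taken against the highest value not well above background on the dim array, a choice made after the data were seen, because a single probe at the array minimum carried the flag with PBS. Spots flagged as local background outliers (21 of 510 HOXB values) were kept. The counting rule was run on simulated data with the noise of the closest pair of arrays (0.22) and the PBS flag for both arrays. Pairs with PBS spread more (0.68 to 0.90), so that run gives no rate of false calls for the comparisons here. RefSeq names and promoter are of GRCh38.p14, and no genome build is given for the array, so probes have no positions here. Alternatives were the authors' table, 75th percentile scaling, cyclic loess (span 0.7, 3 iterations), other detection rules, a 1.5-fold threshold and, as control, the other 5 arrays' median.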

Additional observations from a re-analysis of the deposited data

Results flagged for a closer look

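Negative control spots, which are outside the measurement, carried the flag for a signal well above background more often on every treated array than with PBS (0.50% of 600 spots). The share was 12.8% with IL6, 11.2% with TGFb, 2.33% with IL1b, 1.83% with LPS and 1.83% with TNFa. On the normalized scale the 95th percentile of these spots was 4.65 with IL6 and 5.13 with TGFb, and 13 HOXB probes with IL6 and 5 with TGFb carried the flag at or below it.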

How the results depend on the processing

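No paired analysis was possible because each group had 1 array. Cyclic loess and the authors' table kept every count of 2-fold HOXB differences within 1.5 times, as did leaving out local background outliers, an alternative chosen after seeing the data. All 56 called differences kept their sign under the 3 other scalings. Scaling to the 75th percentile gave 13 lower with IL1b. At 1.5-fold, 20 were lower with LPS, 26 with IL1b and 23 with TNFa, and 1 was higher with IL1b, 5 with IL6 and 2 with TGFb. With the brighter array above its median in place of the flag, 3 were higher with LPS, 3 with TNFa, 13 with IL6 and 11 with TGFb, and 11 lower with IL1b. With negative control spots as the limit, 5 were higher with IL6 and 2 with TGFb. Against the median of the other 5 arrays, lower counts were 0 with LPS, 0 with TNFa, 2 with IL1b, 8 with IL6 and 9 with TGFb, and higher counts 6 with IL6 and 5 with TGFb.

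Unfiltered medians, a value counted as moved past 0.22, the smallest spread between arrays, depended on scaling, and the cause was not tested. Under the 75th percentile they were, for exon, intron and nc- probes, -0.92, -0.99 and -0.99 with LPS, -0.86, -0.97 and -1.06 with TNFa, -1.02, -1.30 and -1.15 with IL1b and -0.72, 0.95 and -0.71 with TGFb, and with IL6 -0.31 for introns and -0.52 for nc- probes. Over probes measured on all 6 arrays they were -0.54, -0.57 and -0.73 with LPS, -0.75, -0.64 and -0.67 with TNFa, -0.77, -0.80 and -0.78 with IL1b, -0.86, 0.86 and -0.80 with IL6, and -1.76 (exon) and -0.43 (nc-) with TGFb. Cyclic loess gave -0.43 and -0.59 for exons and introns with IL1b, -0.38 and -0.50 for exons and nc- probes with TNFa, 0.34 for introns with IL6 and 0.024 for nc- probes with TGFb. Against the median of the other 5 arrays, introns lay at 1.31 with TGFb, 0.33 with IL6, 0.12 with TNFa and -0.49 with IL1b, and nc- probes at -0.11 with IL1b.

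For detection, negative control spots as the limit gave 6 introns with PBS and 14 exons with IL1b, and the array median gave 6 introns with PBS and 12 exons with IL6. The highest limit of the 6 arrays, chosen after seeing the data, gave 8 exons, 5 introns and 23 nc- probes with IL6 and 7 exons and 5 introns with TGFb. With 1 array per group, signal over background and the number of arrays limit every value.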
